A study of Homo sapiens with 12 samples.

Results

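The retinoic acid receptors RARA, RARB and RARG, their partners RXRA, RXRB and RXRG, and the corepressors NCOR1 and NRIP1 were followed through RNA-seq of U937 cells. These 8 genes were chosen by name, and their rows were found by gene symbol among 44786 symbols. They held 111 of the 197782 transcripts counted, and 34 of the 111 had at least 1 read in at least 1 library, against 68785 of all transcripts. U937 is a human myelomonocytic leukemia line without the PML-RARA fusion. There were 12 libraries in 4 groups of 3, namely untreated cells, cells given 200 nM decitabine (DAC), cells given 1 µM all-trans retinoic acid (ATRA), and cells given both (DAC + ATRA). The labels give 72 h for the treated cells and 96 h for the untreated cells, so that time in culture and treatment cannot be told apart in any comparison with untreated cells. The methods of the study give a harvest at 72 h for RNA-seq and no separate time for untreated cells. The labels describe 3 days of treatment with DAC renewed daily, whereas the methods of the study place ATRA on the last of these days only, so 72 h may not be the time under ATRA. All 4 groups grew with 20% FCS and 5 ng/ml GM-CSF according to the labels, and the methods of the study give a lower share of FCS. The series describes the 3 libraries of a group as technical replicates of 1 cell line, so every p-value below measures the spread between such replicates only.

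The RARs are nuclear receptors that bind DNA as heterodimers with an RXR, mostly at direct repeats of a short half-site. Without ligand, the heterodimer holds corepressors such as NCOR1 and its deacetylase partners at the gene, and ATRA, the natural RAR ligand, exchanges these for coactivators. RARB is a textbook target of its own receptor family and is often silenced by DNA methylation in cancer. DAC lowers DNA methylation because it traps DNA methyltransferases. NRIP1 is a corepressor that, unlike NCOR1, binds receptors carrying their ligand.

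The direct repeats near the transcript starts of these genes are shown first, because transcripts of RARA and RARB that begin at different starts held reads in different groups. Within 500 bases of each start, both strands of hg38 were searched for pairs of half-sites spaced by 5, 2 or 1 bases (DR5, DR2, DR1). Each half-site had the form NGNTNA, with A or G in its first place, G or T in the third and C or G in the fifth. Of 68500 windows of this length around starts of protein-coding transcripts in the table, 1.00% held a DR5, 1.68% a DR2 and 1.45% a DR1. The RARB start at position 25428263 of chromosome 3, used by ENST00000330688 and ENST00000437042, had 1 DR5 on the gene's strand, from 53 to 37 bases before the start. The RARA start of ENST00000394086, at position 40341388 of chromosome 17, had 2 DR5, both after the start and on the gene's strand. The 33 starts searched were those of matched transcripts with reads, of protein-coding type or not. The only other match was at ENST00000470566 of RXRG, with 1 DR1 at chr1:165425086-165425098 on the minus strand, from 126 to 114 bases before its start. In the lines below, 5′ to 3′ on the plus strand, capitals mark the half-sites. A match describes these letters only, and no binding was measured.
RARB, DR5 at chr3:25428210-25428226, with flanks: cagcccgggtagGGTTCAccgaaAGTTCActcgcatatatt
RARA, first DR5 at chr17:40341622-40341638, with flanks: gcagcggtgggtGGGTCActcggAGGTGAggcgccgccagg
RARA, other DR5 at chr17:40341653-40341669, with flanks: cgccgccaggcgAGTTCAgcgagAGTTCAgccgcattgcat

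Each library held 8042435 to 10683593 counted reads, of which 36.3% to 42.5% were mitochondrial. The values are reads per transcript divided by 1 size factor for the library, called normalized read counts here. How reads that overlap several transcripts were counted is not given in the sources used here, so values of different genes were not compared as levels. Exonic bases of a transcript that no exon of another matched transcript of the table covers on that strand are called unshared. Of 9 myeloid markers, 7 stood at 10 or more normalized reads in all libraries, while PTPRC and CSF2RA had no read. The summed value of the 9 was between 55107 and 61492 in untreated cells, 26161 and 39960 with DAC, 33088 and 44758 with ATRA, and 21722 and 23025 with DAC + ATRA. Most of this sum was 1 gene, MPO, at 14274 to 55620 over the 12 libraries, and the other markers did not all share its direction. LYZ was at 155 to 181 in untreated cells and 954 to 1178 with DAC + ATRA, and ITGB2 at 105 to 171 and 532 to 559. CSF3R was lower with DAC + ATRA (408 to 473) than in untreated cells (555 to 693), SPI1 and CD33 overlapped between these groups, and CD4 lay higher with DAC + ATRA. All 4 erythroid markers had no read, whereas 1 of 6 lymphoid markers (CD79A) and 1 of 5 epithelial or stromal markers (COL1A1) reached 10 in every library. The lymphoid sum was 133 to 143 in untreated cells, 526 to 540 with DAC, 229 to 374 with ATRA and 1323 to 1409 in cells given both. The epithelial and stromal sum was 14.6 to 21.2 in untreated cells, 218 to 284 with DAC, 48.6 to 54.6 with ATRA and 133 to 167 in cells given both. Most of the lymphoid sum was CD79A, at 124 to 1385 over the 12 libraries. Most of the epithelial and stromal sum was COL1A1, at 14.6 to 266. The part of any of these shifts in the results below was not tested. In bulk RNA, fewer cells of a type and less RNA per cell cannot be told apart.

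A transcript was called changed when its adjusted p was under 0.01 in limma, fitted to log2(normalized read count + 1) over all 12 libraries, and log2 fold changes are on that scale. Among the receptor and corepressor genes, 7 transcripts reached a normalized read count of 10 in 3 libraries, 3 of them protein-coding and 4 of another type. Of the 3 protein-coding ones, 1 rose with DAC, where 30.6% of all 9016 protein-coding transcripts tested rose, 0 rose with ATRA (background 6.47%), and 2 rose with DAC + ATRA (background 32.6%). Without adjustment, ATRA gave a p under 0.05 in limma for 1 of the 3, and for 2356 of all 9016. Of the 4 others, fitted with all 19373 transcripts of any type, 2 rose with DAC (background 22.2%), 1 with ATRA (5.11%) and 3 with DAC + ATRA (25.5%). RARG ENST00000551580, among the 4, reached the filter only with the DAC + ATRA libraries included, so that its rise there is not independent of the filter. No transcript of these genes fell against untreated cells in either fit. Falls were also the rarer call among all 9016 protein-coding transcripts: DAC lowered 8.70%, ATRA 2.67%, and the 2 agents together 14.2%. For the 4 others, no such share of falls was compared. With so few transcripts tested, rises this common and falls this rare, the counts alone do not set these genes apart from the rest. Under the authors' scaling, the median log2 fold change of all protein-coding transcripts was 0.22 with DAC and 0.20 with DAC + ATRA, and it was 0.02 to 0.09 and 0.05 to 0.06 in edgeR, DESeq2 and the limma fit under 2 other scalings. The share of called transcripts that were higher was 77.9% for DAC, 69.7% for DAC + ATRA and 70.8% for ATRA. Under the 2 other scalings of the limma fit it was 62.6% and 65.5% for DAC, 58.6% and 59.7% for DAC + ATRA, and 54.6% and 65.3% for ATRA. In edgeR and DESeq2, which also change the test, it was 58.9% and 61.9% for DAC.

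**Figure D1:**
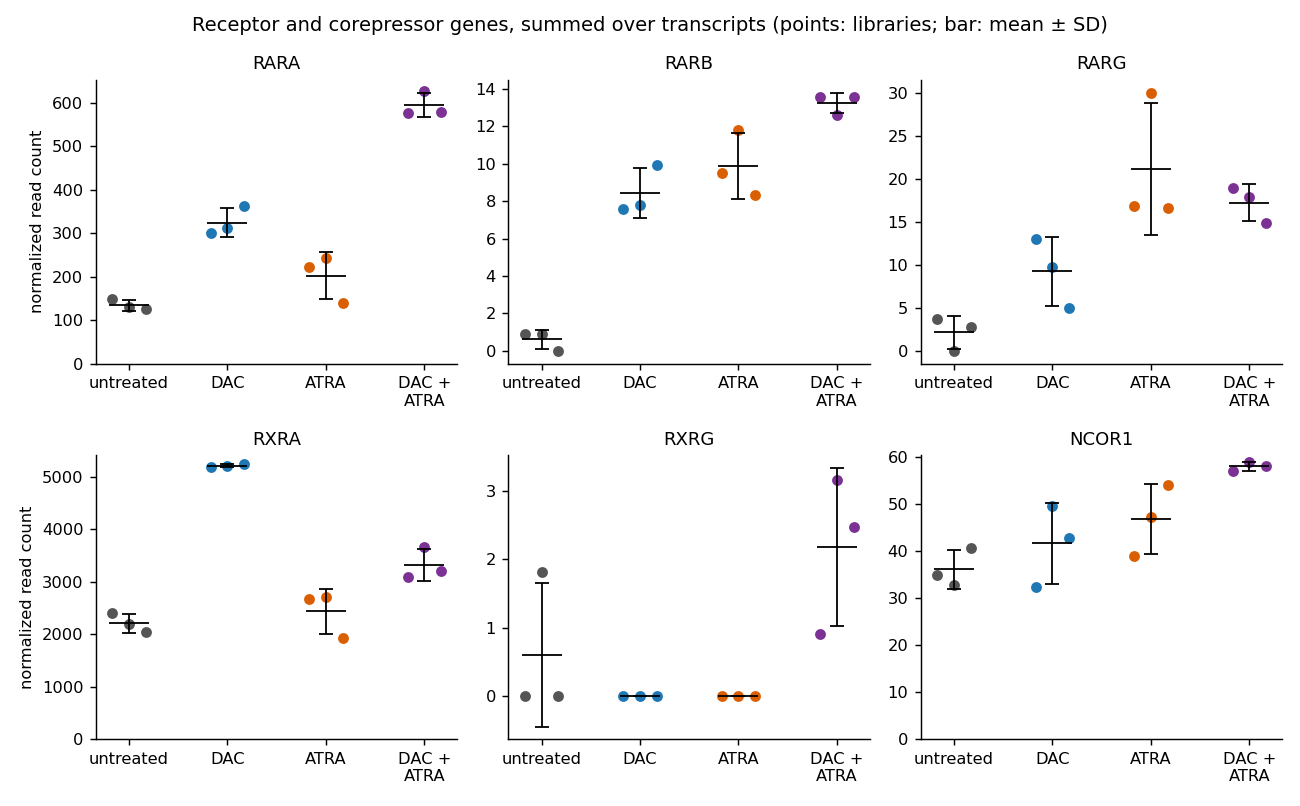
Normalized read counts of 6 genes, summed over all their transcripts, in each of 12 libraries (points) with the mean and SD of each group (bars), on linear axes of their own. RARA ranges from 125 to 148 in untreated cells and from 577 to 627 with DAC + ATRA, RARB from 0 to 0.919 and from 12.6 to 13.6, and RXRA is highest with DAC alone, at 5175 to 5238.

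RARA, the receptor most used in myeloid cells, rose with DAC and rose further with DAC + ATRA. Its leading transcript, ENST00000425707 (chr17:40318285-40357643, plus strand), held 93.5% of the 3748 RARA reads. Its normalized read counts were 142, 122 and 120.1 in untreated cells, 291, 298 and 339.6 with DAC, 211, 233 and 134 with ATRA, and 526, 573 and 526 with DAC + ATRA. The DAC libraries all lay above the untreated ones and below those of DAC + ATRA, while the ATRA libraries overlapped the untreated ones. The log2 fold change was 1.27 ± 0.16 (SE) with DAC (adjusted p = 1.3e-06) and 2.07 ± 0.16 with DAC + ATRA (adjusted p = 6.8e-10). With ATRA alone it was 0.55 ± 0.16, which missed the threshold in limma (adjusted p = 0.024) but passed it in edgeR (adjusted p = 0.0080) and DESeq2 (adjusted p = 0.0033). Without ATRA library 9, whose value of 134 lay within the untreated range, the ATRA change was 0.79 ± 0.12 in limma (adjusted p = 9.5e-05), whereas it was 0.46 ± 0.18 (adjusted p = 0.097) without library 7 and 0.39 ± 0.17 (adjusted p = 0.15) without library 8. DAC + ATRA exceeded DAC by 0.81 ± 0.16 (adjusted p = 0.00097, background 6.08%) and ATRA by 1.52 ± 0.16 (adjusted p = 1.0e-07, background 25.9%). The interaction, which is 0 when the single-agent changes add up on the log2 scale, was 0.26 ± 0.23 (adjusted p = 0.62). The reads of ENST00000425707 cannot be given to 1 promoter: when transcripts with a changed version in GENCODE 44 are set aside, its unshared bases are 848 bases at the end of its last exon (chr17:40356796-40357643).

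A shorter RARA transcript without a defined coding sequence, ENST00000420042, rose with DAC + ATRA. Its 145 unshared bases are its first exon, at chr17:40351387-40351531. Its normalized read counts were 5.51, 4.55 and 2.77 in untreated cells, 5.4, 10.7 and 16.9 with DAC, 8.45, 10.01 and 6.66 with ATRA, and 34.4, 35.8 and 32.1 with DAC + ATRA. Every DAC + ATRA library stood above all others. The log2 fold change was 2.77 ± 0.37 with DAC + ATRA (adjusted p = 6.6e-07), 1.10 ± 0.37 with DAC (adjusted p = 0.018) and 0.85 ± 0.37 with ATRA (adjusted p = 0.16). Against DAC alone, DAC + ATRA was higher by 1.67 ± 0.37 (adjusted p = 0.0022, background 5.18%), a call lost without DAC library 4 or any 1 of the DAC + ATRA libraries (1.27 to 2.02 over all such omissions).

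Reads of the RARA transcripts with downstream starts came mostly from DAC + ATRA. The transcripts ENST00000394086 (start 40341388) and ENST00000394081 (start 40342363) begin about 23 and 24 kb after the start of ENST00000425707, and their unshared bases are parts of their own first exons. Together they had 1 read in untreated cells, 5 with DAC, 0 with ATRA and 31 when both were given, which were 0.228%, 0.521%, 0% and 1.82% of the RARA reads of each group. The exact 95% interval of the last share was 1.24% to 2.57%, and 0 of 647 reads allows up to 0.464%, counting 0 as 3 reads here and in the shares of RARB. Intervals here cover counting error only. ENST00000394081 had 0, 0 and 1 reads in untreated cells, 1, 1 and 3 with DAC, 0 in each ATRA library, and 9, 10 and 7 with DAC + ATRA. It lay under the filter on low values. In a fit of all 25317 protein-coding transcripts with any read, it passed the threshold for DAC + ATRA against untreated cells (adjusted p = 8.5e-06, background 13.9%). Against the ATRA libraries, counting their 0 reads as 3 over the group, it was at least 9.82-fold higher. ENST00000475125, which starts at position 40345241, had 0 reads in untreated and ATRA libraries, 0, 1 and 2 with DAC and 4, 2 and 7 with DAC + ATRA. It too passed in that fit with DAC + ATRA (adjusted p = 0.00039), at least 4.94-fold above untreated cells. ENST00000394086, with 5 reads in all and each of them with DAC + ATRA, passed in limma (adjusted p = 0.0059) and not in edgeR (adjusted p = 0.11). It entered the fit only through those libraries, so that its rise there is not independent of the filter. Against DAC alone, the limma fit did not call ENST00000394081, ENST00000475125 or ENST00000394086.

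The same stretch is covered on the other strand by RARA-AS1 (ENST00000581080, chr17:40340867-40343136, minus strand), a noncoding RNA whose exons share 328 bases with ENST00000394081 and 228 with ENST00000394086. These 228 are all the unshared bases of ENST00000394086. Of the unshared bases of ENST00000394081, a stretch of 36 lies under exons of RARA-AS1 and one of 89 does not. RARA-AS1 is not among the 8 genes and was added after its values were seen. It had 0 reads in all untreated and all ATRA libraries, 19, 17 and 30 reads with DAC, and 118, 85 and 99 with DAC + ATRA. Against 3 reads over the untreated group, it was at least 24.3-fold higher with DAC and at least 115-fold higher with DAC + ATRA. From DAC to DAC + ATRA it rose by 2.23 ± 0.38 on the log2 scale (adjusted p = 0.00012), a call lost in limma with a pseudocount of 0.1 (adjusted p = 0.076). The interaction of the same size had an adjusted p of 0.017. The libraries are stranded, but the strand setting of the counting is not given in the sources used here. Transcripts whose unshared bases all lay under exons of the other strand held at least 10 reads in 40.0% of 1461 cases, against 40.8% of 74434 cases without such overlap.

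**Figure D2:**
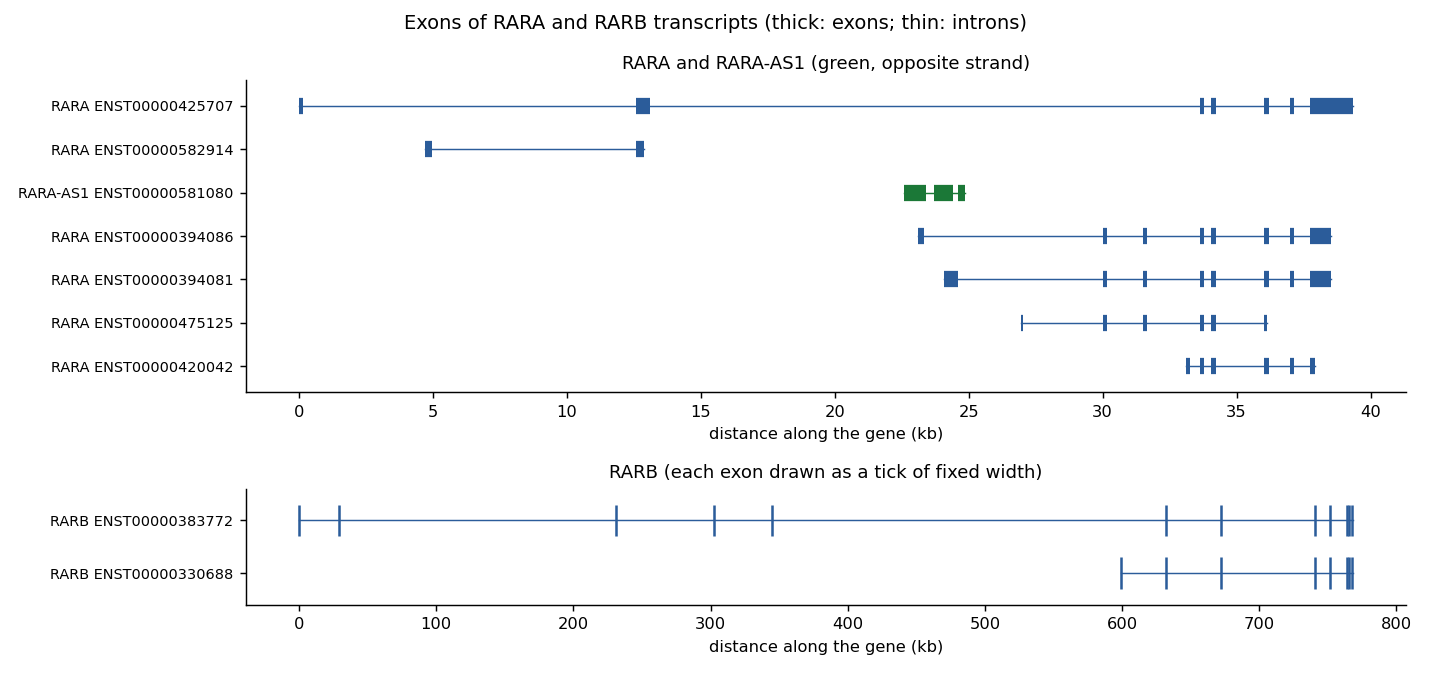
Exons (thick) and introns (thin) of the RARA transcripts with at least 5 reads, RARA-AS1 (green) and 2 RARB transcripts, drawn against the distance along each gene in kb, with RARB exons as ticks of fixed width. The 2 downstream RARA starts lie over the exons of RARA-AS1, and the 2 RARB transcripts share their last 7 exons but begin 599 kb apart in GENCODE 44.

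RARB rose from almost no reads in every treated group, but on different transcripts. Summed over its transcripts, RARB had 1, 1 and 0 reads in the untreated libraries, 7, 8 and 10 with DAC, 9, 13 and 10 with ATRA, and 15, 12 and 11 with DAC + ATRA. No treated library overlapped the untreated ones. Sums over all transcripts of a symbol were fitted for 13528 symbols, a choice made after the data were seen, and 5 of the 8 genes passed the filter there. RARB did so only with the DAC + ATRA libraries included, since 1 other library reached 10. RARB passed the threshold with DAC (adjusted p = 2.2e-06, background 28.2%) and ATRA (adjusted p = 3.6e-06, background 6.68%). It also did with DAC + ATRA (background 31.1%), but the rise there is not independent of the filter. As ratios of reads per unit of size factor, the sums were 13.8 (95% interval 3.45 to 120), 16.1 (4.11 to 139) and 21.7 (5.60 to 185) times the untreated value, which rests on 2 reads. DAC + ATRA was 1.57 times DAC (interval 0.922 to 2.71) and 1.35 times ATRA (0.819 to 2.23), and neither difference passed the threshold (adjusted p = 0.28 and 0.38). The interaction was -2.20 ± 0.51 on the log2 scale and, like these ratios, uses the libraries that brought RARB through the filter. It was at the edge of the threshold, with an adjusted p of 0.010 in limma and 0.021 in edgeR, where limma called 1.60% of all sums in that direction.

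The transcript that carried the RARB reads differed between DAC and ATRA. ENST00000383772, which GENCODE 44 starts at position 24829337 of chromosome 3, had 0, 1 and 0 reads in untreated cells, 7, 6 and 10 with DAC, 0 in each ATRA library, and 2, 1 and 1 with DAC + ATRA. ENST00000330688, which starts beside the DR5 shown above, had 1, 0 and 0 reads in untreated cells, 0 in each DAC library, 8, 11 and 10 with ATRA, and 11, 9 and 6 with DAC + ATRA. The reads of the first were thus high with DAC alone, and those of the second were high in both groups given ATRA and in no other. In shares of all RARB reads, ENST00000383772 took 23 of 25 with DAC (92.0%, exact 95% interval 74.0% to 99.0%), 0 of 32 with ATRA, which allows up to 9.38%, and 4 of 38 with DAC + ATRA (10.5%, interval 2.94% to 24.8%). The transcripts that begin at position 25428263, ENST00000330688 and ENST00000437042, took 0 of 25 with DAC, which allows up to 12%, 29 of 32 with ATRA (90.6%, interval 75.0% to 98.0%) and 27 of 38 with DAC + ATRA (71.1%, interval 54.1% to 84.6%).

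In the fit of all protein-coding transcripts with any read, ENST00000383772 rose with DAC (adjusted p = 4.2e-05, background 12.7%), with a ratio of 25.4 to the single untreated read (interval 4.13 to 1048). With DAC + ATRA it stood at 0.179 times its value with DAC (interval 0.0451 to 0.525, adjusted p = 0.027). ENST00000330688 rose with ATRA (adjusted p = 2.1e-05, background 2.26%) and with DAC + ATRA (adjusted p = 3.8e-06), and it was at least 8.94-fold higher with DAC + ATRA than with DAC (adjusted p = 1.9e-06, background 2.31%). The ratio of DAC + ATRA to ATRA was 1.02 (interval 0.575 to 1.79). The edgeR test on the recovered reads gave adjusted p of 0.00038 for ENST00000383772 with DAC and 3.6e-05 for ENST00000330688 with ATRA. Fits of only the 2 groups compared gave 0.010 and 0.096, over the threshold in both cases. In GENCODE 44, ENST00000330688 has 3 unshared bases, at the end of its last exon (chr3:25597930-25597932), ENST00000437042 has 0, and ENST00000383772 has 67 in exon 1 and 48 in exon 4. The table holds older versions of all 3 than GENCODE 44, so the starts and unshared bases of the counted versions may differ. As with RARA ENST00000425707, the reads name a transcript and cannot be given to 1 start. A further RARB transcript, ENST00000489694, had 12 reads, 7 of them with DAC + ATRA, and it was not matched in GENCODE 44.

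**Figure D3:**
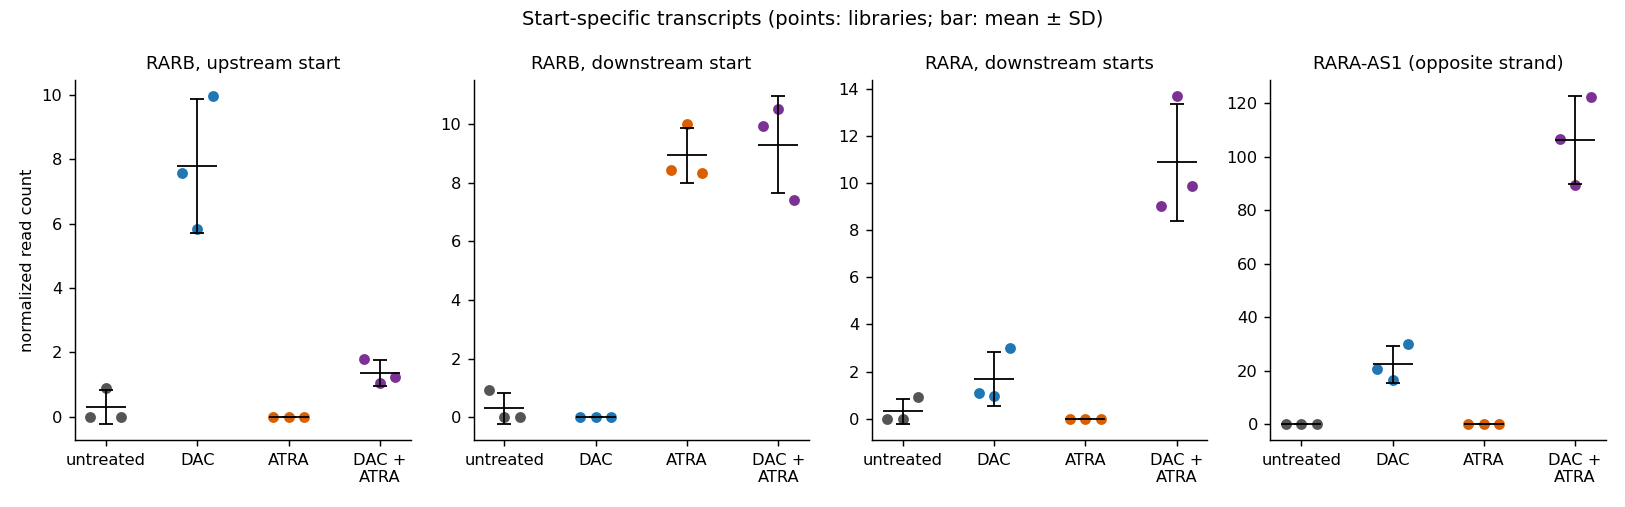
Normalized read counts per library (points) with mean and SD (bars) of the RARB transcript with the upstream start, the RARB transcripts with the downstream start, the RARA transcripts with downstream starts, and RARA-AS1, each on a linear axis of its own. The upstream RARB transcript is high with DAC alone (5.85 to 9.96), the downstream one in both groups with ATRA (7.41 to 10.5), and the RARA transcripts and RARA-AS1 are highest with DAC + ATRA.

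RARG, the third receptor, rose with ATRA at low read counts, mostly on a retained-intron transcript, while its rise with DAC depended on the fit. Of its 153 reads, 115 fell on ENST00000551580, a retained-intron transcript whose 251 unshared bases (chr12:53214607-53214857, minus strand) lie outside the exons of the other RARG transcripts. Its reads were 3, 0 and 2 in untreated cells, 8, 10 and 3 with DAC, 9, 27 and 13 with ATRA, and 17, 14 and 9 with DAC + ATRA. No treated library overlapped the untreated ones once scaled. The log2 fold change was 2.74 ± 0.50 with ATRA (adjusted p = 0.00027) and 2.73 ± 0.50 with DAC + ATRA, where it is not independent of the filter. With DAC it was 1.76 ± 0.50 (adjusted p = 0.0053), a call lost in edgeR (adjusted p = 0.016), in DESeq2 (adjusted p = 0.024) and in limma with a pseudocount of 0.1 (adjusted p = 0.015). Without untreated library 2, which had 0 reads, the DAC value was 1.19, with an adjusted p of 0.055, and without DAC library 4 or 5 it lost the call as well (adjusted p = 0.029 and 0.034). DAC + ATRA against ATRA was -0.01 ± 0.50 (adjusted p = 0.99). The coding RARG transcript with a read, ENST00000543726, had 1 read in 1 ATRA library, so coding RARG mRNA was hardly measured by these counts.

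RXRA, the heterodimer partner with the most reads, rose with DAC and stood lower when ATRA was added. ENST00000356384 (chr9:134371971-134440585, plus strand), a transcript without a defined coding sequence, held 99.5% of the 39916 RXRA reads. Its normalized read counts were 2389, 2175 and 2028 in untreated cells, 5153, 5185 and 5214 with DAC, 2644, 2689.9 and 1928 with ATRA, and 3077, 3647 and 3189.6 with DAC + ATRA. The DAC libraries lay close together and above all others, and the ATRA libraries overlapped the untreated ones. The log2 fold change was 1.24 ± 0.11 with DAC (adjusted p = 9.9e-10), 0.13 ± 0.11 with ATRA (adjusted p = 0.56) and 0.59 ± 0.11 with DAC + ATRA (adjusted p = 8.5e-05). DAC + ATRA was lower than DAC by 0.65 on the log2 scale (log2 fold change -0.65 ± 0.11, adjusted p = 0.00012) and higher than ATRA by 0.46 ± 0.11 (adjusted p = 0.0016). Of all transcripts of any type, 3.59% fell in the first of these comparisons and 19.1% rose in the other. The rise over ATRA was 0.31 and lost its call without DAC + ATRA library 11. The interaction was -0.78 ± 0.16 (adjusted p = 0.0037), negative and called in 0.986% of all, so that the DAC + ATRA libraries lay below the sum of the single-agent changes. This call was lost in 8 of 12 fits that each left out 1 library (adjusted p 0.012 to 0.025).

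The unshared bases of ENST00000356384 in GENCODE 44 are its first 3 exons, 438 bases that lie outside the exons of the other RXRA transcripts, and with transcripts of a changed version set aside they take in all its exons but the fourth, among them the last with 4119 bases. Which of these drew the reads was not tested. The coding transcript ENST00000481739 had 7 reads, 2 of them in untreated cells, 5 with DAC and 0 in both groups with ATRA. The retained-intron transcript ENST00000484822 had normalized read counts of 7.35, 14.6 and 9.24 in untreated cells and 19.5, 20.5 and 21.9 with DAC, without overlap, but its log2 fold change of 0.97 ± 0.34 missed the threshold (adjusted p = 0.023).

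RXRB and RXRG could hardly be followed by these counts. RXRB had no read on any of 37 transcripts, of which 32 were not matched in GENCODE 44, and 3 of the 5 matched ones had under 30 unshared bases. RXRG had 8 reads in all, 2 of them in 1 untreated library and 1, 3 and 2 in the DAC + ATRA libraries. Against 3 reads over the group, the 6 reads with DAC + ATRA were at least 2.06-fold above DAC and at least 2.27-fold above ATRA (two-sided exact permutation p = 0.1 for each, the smallest that 3 against 3 libraries can give). They were 3.42 times the untreated value (95% interval 0.612 to 34.7), with overlapping groups and an exact permutation p of 0.2. A count of 0 here does not show that a gene was silent.

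**Figure D4:**
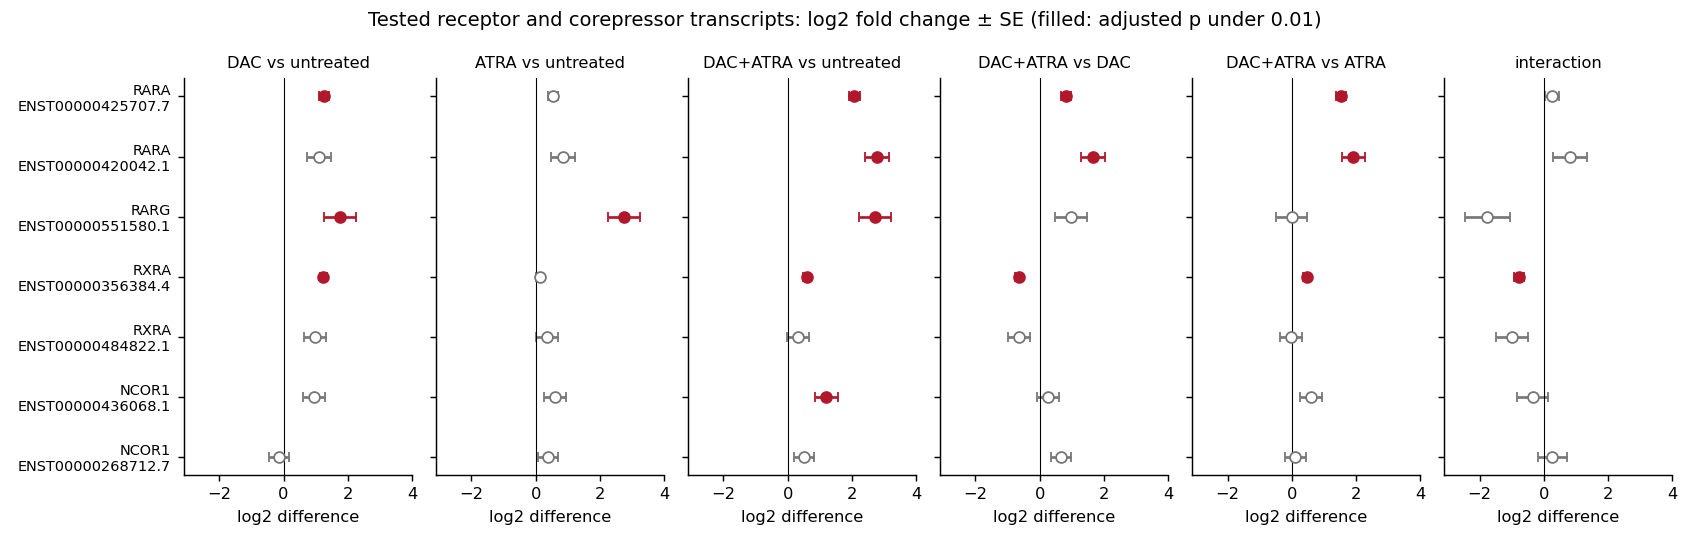
Log2 fold changes (points) with SE (bars) of the 7 transcripts past the filter in 5 comparisons and the interaction, filled where the adjusted p was under 0.01. RARA ENST00000425707 is filled in 4 of the 5 comparisons, RXRA ENST00000356384 also in the interaction, and NCOR1 only with DAC + ATRA against untreated cells.

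NCOR1, the corepressor that links unliganded RARs to histone deacetylases, had its reads spread over 12 transcripts. Summed over them, the normalized read counts were 34.9, 32.8 and 40.6 in untreated cells, 32.4, 49.7 and 42.8 with DAC, 39.1, 47.3 and 54.1 with ATRA, and 57.0, 58.9 and 58.1 with DAC + ATRA. The DAC + ATRA libraries lay above all others, whereas DAC and ATRA overlapped the untreated group. The sum was higher by 0.67 ± 0.20 with DAC + ATRA (adjusted p = 0.0055), but not past the threshold in edgeR (adjusted p = 0.015), in DESeq2 (adjusted p = 0.027), or in limma with library size scaling (adjusted p = 0.040) or size factors from protein-coding transcripts (adjusted p = 0.031). The leading transcript ENST00000436068 (chr17:16029065-16215554, minus strand) had 7.35, 5.46 and 9.24 in untreated cells, 9.73, 18.5 and 17.9 with DAC, 9.5, 17.3 and 9.16 with ATRA, and 18.1, 23.2 and 13.6 with DAC + ATRA. DAC and DAC + ATRA both lay above the untreated group and overlapped each other. Its log2 fold change of 1.20 ± 0.35 with DAC + ATRA (adjusted p = 0.0059) was over the threshold in edgeR (adjusted p = 0.011), in DESeq2 (adjusted p = 0.034) and under both other scalings of the limma fit (adjusted p = 0.014 and 0.012). The call was also lost without untreated library 1 or 2 or without DAC + ATRA library 10 or 11. The other tested transcript, ENST00000268712, had a log2 fold change of 0.51 ± 0.32 with DAC + ATRA (adjusted p = 0.18) and was called in no comparison. NRIP1 had no read, and 3 of its 4 transcripts had no unshared base in GENCODE 44.

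The other genes of the pathway were taken from 4 lists, 1 transcript for each gene. Of 13 textbook targets of retinoic acid, 7 were tested. CYP26A1 and TGM2 reached the filter only through the DAC + ATRA libraries, so that their rise there was fixed by the filter. Of the other 5, all 5 rose with DAC + ATRA, against 32.6% of all transcripts, with a median log2 fold change of 3.94 beside 0.20 for all. With ATRA, 5 of the 7 rose and 0 fell (median 3.55 beside 0.00), where 6.47% of all rose. With DAC 2 of the 7 rose and 1 fell (median 0.71 beside 0.22), where 30.6% of all rose and 8.70% fell. CYP26A1, which degrades retinoic acid, had a mean normalized read count of 0.308 ± 0.533 (SD, n = 3) in untreated cells, 0.649 ± 1.12 with DAC, 3.91 ± 2.81 with ATRA and, in cells given both, 519 ± 83.4. TGM2, a transglutaminase, was at 0 reads in untreated cells and at 21.6 ± 3.76 with DAC + ATRA. HIC1, a transcriptional repressor, went from 2.14 ± 0.513 to 188 ± 24.7 with ATRA and 584 ± 46.0 with DAC + ATRA. CD38, an ectoenzyme and the gene of the list with the highest mean normalized read count, fell by 0.70 on the log2 scale with DAC and rose with ATRA (4.25 ± 0.12) and DAC + ATRA (3.94 ± 0.12). CEBPE, a granulocytic transcription factor, rose in all 3 groups, from 256 ± 25.6 to 1497 ± 193 with DAC, 1204 ± 219 with ATRA and 1693 ± 141 with the pair. The retinaldehyde reductase DHRS3 (3.81 ± 0.12) also rose with DAC + ATRA.

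Coactivators and corepressor subunits moved in both directions. Of 10 tested coactivators out of 13 listed, 5 rose and 3 fell with DAC + ATRA (median 0.23), where 32.6% of all transcripts rose and 14.2% fell. With ATRA 1 rose and 1 fell (6.47% and 2.67% of all), the fall being lost without any 1 of the untreated libraries or without ATRA library 8 or 9, and with DAC 4 rose and 2 fell (30.6% and 8.70%). NCOA3, a p160 coactivator of nuclear receptors, rose from 157 ± 28.1 to 266 ± 39.9 with DAC, 302 ± 30.8 with ATRA and 618 ± 34.3 with the pair (1.98 ± 0.14, adjusted p = 2.0e-10). The acetyltransferase EP300 rose from 2623 ± 206 to 5491 ± 777 with DAC and 5580.4 ± 474 with DAC + ATRA, and KAT2B by 0.83 ± 0.15 with DAC + ATRA. The metabolic coactivators PPARGC1A (-1.52 ± 0.20) and PPARGC1B (-0.49 ± 0.09) and the methyltransferase CARM1 (-0.61 ± 0.16) fell with DAC + ATRA. Of 9 tested genes out of 16 listed for corepressor complexes other than the 2 named corepressors, 2 rose and 3 fell with DAC + ATRA (median -0.02). Without untreated library 1 or 2 or DAC + ATRA library 11, the count was 2 higher and 1 lower. SIN3B, a scaffold of a deacetylase complex, rose by 0.89 ± 0.15 and LCOR by 0.72 ± 0.17. HDAC2 (-0.73 ± 0.18), SAP30 (-0.55 ± 0.11) and the histone-binding RBBP4 (-0.31 ± 0.09) fell. Of 13 further receptors that pair with an RXR, 3 were tested and 1, the thyroid hormone receptor THRA, fell, from 908 ± 32.7 to 516 ± 16.8 with ATRA and 393 ± 34.1 with DAC + ATRA (-1.21 ± 0.12, adjusted p = 2.5e-08).

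**Figure D5:**
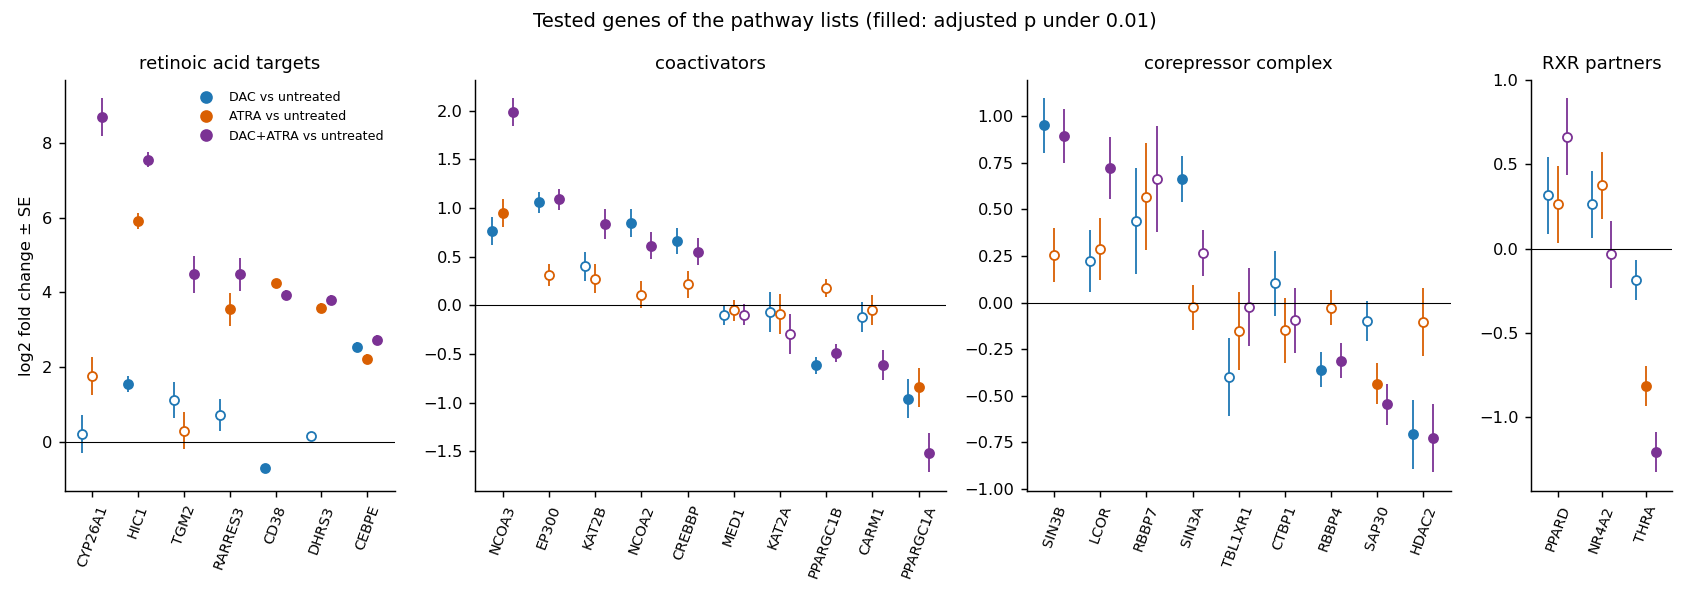
Log2 fold changes against untreated cells (points, with SE bars) of the tested genes of 4 lists, in the order DAC, ATRA, DAC + ATRA, filled where the adjusted p was under 0.01, each panel on its own axis. The retinoic acid targets are filled and above 0 with DAC + ATRA, which for CYP26A1 and TGM2 was fixed by the filter on low values, while coactivators and corepressor subunits lie on both sides of 0.

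The transcripts whose pattern over the 12 libraries was most like that of a called member were found by Pearson's r of log2 values, which the 4 shared groups inflate. For RARA ENST00000425707, among 9015 protein-coding transcripts, they were those of OAS1 (r = 0.990), SOCS3 (r = 0.988) and ZBTB7A (r = 0.987). For NCOR1 ENST00000436068 they were SH3BP5L (r = 0.933), FAM168B (r = 0.933) and FNDC3A (r = 0.930). Among transcripts of any type, an extension made after values were seen, RXRA ENST00000356384 was most like PLP2 (r = 0.987), ATRN (r = 0.983) and FAM83G (r = 0.983). ENST00000420042 of RARA was most like GIMAP7 (r = 0.982), ESRRB (r = 0.977) and EPAS1 (r = 0.974), and RARG ENST00000551580 like RHBDD3 (r = 0.924), RCSD1 (r = 0.916) and C1orf127 (r = 0.911).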

How the data were processed

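Per the labels and the study's methods, the authors prepared paired-end libraries from ribosome-depleted RNA with a stranded kit, aligned reads to hg38 with STAR, counted them per UCSC transcript with htseq-count and scaled them with DESeq2. Versions, annotation release and counting mode are not given in the sources used here. The deposited signal values are read counts divided by 1 size factor per library. Reads were recovered from the step of each library, and 100% of values came out whole within 0.01 of a read. In the main fit, protein-coding transcripts (by GENCODE 44 type, or by symbol for unmatched identifiers) that held 10 normalized reads or more in 3 or more libraries were tested with limma 3.58.1 (trend, robust) in R 4.3.3 on log2(value + 1), all 12 libraries sharing 1 fit, and p-values were adjusted by Benjamini-Hochberg over the features of a comparison (threshold 0.01). Where no tool stands beside an adjusted p, limma gave it. Other transcripts were fitted with all types, or, under the filter, with all protein-coding transcripts with any read. Ratios of reads carry exact conditional binomial 95% intervals, and a group at 0 reads was set to 3. A depth of 3 reads equals 2.50 to 3.71 normalized reads. Alternatives were edgeR 4.0.16, DESeq2 1.42.0, other scalings, filters and pseudocounts, sums by symbol, and leaving out each library. The plan foresaw edgeR for raw counts and limma for normalized values, and the latter applied. The limma fit was tested on simulated data. Direct repeats were read from hg38 with GENCODE 44 starts, and 174768 of 197782 transcripts matched that release. For each list, the genes named are the 3 highest and 3 lowest called with DAC + ATRA and the one with the highest mean normalized read count. The members and lists were chosen with earlier results of these data known. A gene of the retinoic acid target list and one of the corepressor list are not reported here and were left out of the lists' counts.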

Additional observations from a re-analysis of the deposited data

Results flagged for a closer look

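The effect of ATRA on RXRA differed between cells with and without DAC. For ENST00000356384 the interaction was -0.78 ± 0.16 on the log2 scale in limma (adjusted p = 0.0037), since ATRA gave -0.65 ± 0.11 on top of DAC and 0.13 ± 0.11 without it. The same test on the RXRA sum over transcripts gave -0.78 ± 0.16 (adjusted p = 0.0042). The value lay between -0.94 and -0.70 when any 1 library was left out. It lost the call in 8 of these 12 cases (adjusted p 0.012 to 0.025), namely without untreated library 2 or 3, DAC library 4 or 6, ATRA library 7 or 8, or DAC + ATRA library 10 or 12. It kept the call in edgeR (adjusted p = 0.0010) and DESeq2 (adjusted p = 0.00033).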

How the results depend on the processing

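No paired analysis was possible because the table's columns carry the group but no replicate number. RARA ENST00000394086 with DAC + ATRA was also not called when 1 of 7 libraries was left out, namely each untreated one, each ATRA one and DAC + ATRA library 11 (1.04 to 1.61 over all omissions). Of the fold changes of these genes and RARA-AS1 past the threshold, 0 changed direction under the alternatives run for them. Of these, the alternatives other than leaving out a library left 254 values called and 23 not, and leaving out each library left 499 called and 53 not. Further to losses given with each gene, fits of only the groups compared ended the calls of RARA ENST00000475125, RARA ENST00000394086 and of RXRA between DAC + ATRA and ATRA (adjusted p = 0.0106 in limma). The NCOR1 sum lost its call without untreated library 1 or 2 or any DAC + ATRA library. The count of transcripts called was 3547 with DAC, 824 with ATRA, 4215 with DAC + ATRA, 1022 between DAC + ATRA and DAC, 3136 between DAC + ATRA and ATRA, and 222 for the interaction. With all transcript types the first 5 were 6485, 1351, 8065, 1699 and 5688, and summed by symbol over all types, chosen after seeing the data, 5493, 1300, 6559, 1659 and 5015, since more features were tested. The interaction count was 341 in DESeq2 and also 341 in edgeR without a filter, the latter added after seeing the data, and the cause was not tested. Leaving out 1 library moved it to between 116 (without DAC + ATRA library 10) and 472 (without ATRA library 9), with 143 and 120 without DAC + ATRA libraries 11 and 12. Leaving out 1 library gave 2977 to 3866 with DAC, 619 to 1022 with ATRA, 3514 to 4486 with DAC + ATRA, 695 to 1257 against DAC and 2526 to 3103 against ATRA. Between DAC + ATRA and ATRA, 74.5% of calls were higher, and 62.8% and 66.3% under 2 other scalings of the limma fit. RARB, RARG, RXRG and the RARA transcripts with downstream starts rest on few reads, and RXRB and NRIP1 had none.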
